A study of Mus musculus with 6 samples.

Results

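The Hoxa genes of the middle and 5′ part of the cluster and the TALE homeobox genes whose proteins bind DNA with them were examined in 6 RNA libraries of mouse long-term hematopoietic stem cells (LT-HSCs), which sit in the bone marrow and replenish every blood lineage throughout life. The members were chosen by symbol, with no measured value in the rule: Hoxa5, Hoxa7, Hoxa9 and Hoxa10 of the cluster, and Meis1, Pbx2, Pbx3 and Pknox1 of the TALE class. The choice was made with earlier results of these data known. All 8 were found among the 13935 genes of the deposited table, and all 8 were among the 12603 that had enough counts to be tested. The study compared wild-type mice (3 libraries, replicates 1 to 3) with mice in which Mel18 was knocked out conditionally in the hematopoietic system (3 libraries, replicates 4 to 6), each library labelled as 1 mouse. The sources used here do not give the driver of the Cre recombinase, the marker gate of the sort, the age of the mice or any pooling of cells. The table heads its comparison Cre+ against Cre-; if the knockout libraries are Cre+, the genotype and Cre itself cannot be told apart.

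Hox proteins are transcription factors with a homeodomain, laid out in clusters whose gene order follows the body axis, and those of the Hoxa cluster also act in blood stem and progenitor cells. TALE proteins (three-amino-acid-loop-extension homeodomain proteins) of the Meis, Pbx and Pknox families bind DNA together with Hox proteins and with each other, which raises the site selectivity of the Hox protein. Hoxa9 with Meis1 sustains self-renewal of blood progenitors and drives leukemia when overexpressed in mice. Polycomb complexes, of which Mel18 (gene Pcgf2) is a subunit, repress Hox clusters in cells where they are silent, and the study asked whether its loss alters transcription in LT-HSCs.

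No member changed at an adjusted p below 0.05 between wild-type and knockout libraries (0 of 8, edgeR quasi-likelihood F-test, Benjamini-Hochberg over all genes tested), where 0.143% of all genes tested did. Hoxa10 stood nearest to a call, with a mean of 17.4 ± 6.41 CPM (counts relative to the TMM-scaled library total) in wild type and 54.5 ± 16.6 CPM in knockout (SD, n = 3 each). Meis1 and Pbx3 had higher means and Pknox1 a lower mean in the knockout, while Hoxa9, whose mean level per exon length was the highest of the Hoxa genes in both groups, had nearly equal means. At an unadjusted p below 0.05 there were 3 members, Hoxa10, Meis1 and Pknox1, beside 11.9% of all genes tested. DESeq2 and the edgeR likelihood ratio test each called 1 member, Hoxa10, where they called 4.21% and 3.43% of all genes. limma-voom called 0 members and 0% of genes, and with sample quality weights 0 members and 0.0317% of genes. The groups did not overlap for 3 of 8 members (Hoxa10, Pbx3 and Pknox1), against 21.4% of all genes tested.

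Wild-type libraries held 30087057, 26469336 and 30950057 counts, and knockout libraries 37180701, 36825275 and 33537679. So 3 counts amounted to 0.0782 to 0.115 CPM. Every knockout library was deeper than every wild-type library, and values given as counts are not scaled for this. Knockout replicate 6 stood apart: along the leading principal component of the log2 CPM values, with 39.0% of the variance, it scored 167. On the same axis the wild-type libraries scored -58.5, -41.9 and -71.6, and knockout replicates 4 and 5 scored 7.75 and -3.16. The label number of knockout replicate 6 also lies outside the run of the others, S37 against S6 to S10. Pcgf2 itself had 43, 68 and 54 counts in wild type and 72, 72 and 107 counts in knockout, or 1.47, 2.61 and 1.70 CPM against 1.88, 1.88 and 3.36 CPM. This whole-gene level was thus not lower in the knockout libraries and the groups overlapped in CPM (log2 fold change 0.30, SE 1.14), so every direction here is between libraries by their labels. The cell markers also moved with the groups. All 20 LT-HSC markers were fitted higher in the knockout (Procr passed the test), with summed levels of 1420 to 2670 CPM in wild type and 3760 to 5090 CPM in knockout. All 14 markers of multipotent and lineage-primed progenitors were fitted lower (Cd48 and Fcgr3 passed), with sums of 6490 to 15100 CPM in wild type against 541 to 1690 CPM in knockout. All 8 cell-division markers were fitted lower with 0 past the test and 7 at an unadjusted p below 0.05 (1360 to 2020 CPM against 306 to 783 CPM; edgeR quasi-likelihood). Over all genes tested, 11.9% had an unadjusted p below 0.05 and 49.6% were fitted higher. The part of these shifts in the values of the Hoxa and TALE genes was not tested, and in bulk samples fewer cells of a type and less RNA per cell cannot be told apart.

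The sequences upstream of Hoxa9 and Hoxa10 are shown because the genes are neighbours whose ratio did not overlap between the groups, and because RefSeq gives Hoxa10 more than 1 start. They are the 250 bases before each annotated start (RefSeq, GRCm38.p6, the build mm10, minus strand), at chr6:52227371-52227620 for Hoxa9, chr6:52240855-52241104 for the far start of Hoxa10 and chr6:52234940-52235189 for its near start.
Hoxa9: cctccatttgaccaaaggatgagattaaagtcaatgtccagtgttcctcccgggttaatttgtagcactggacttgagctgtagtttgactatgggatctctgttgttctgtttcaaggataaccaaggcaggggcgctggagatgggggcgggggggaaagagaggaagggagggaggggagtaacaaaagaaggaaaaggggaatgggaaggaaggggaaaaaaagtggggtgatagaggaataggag
Hoxa10 far start: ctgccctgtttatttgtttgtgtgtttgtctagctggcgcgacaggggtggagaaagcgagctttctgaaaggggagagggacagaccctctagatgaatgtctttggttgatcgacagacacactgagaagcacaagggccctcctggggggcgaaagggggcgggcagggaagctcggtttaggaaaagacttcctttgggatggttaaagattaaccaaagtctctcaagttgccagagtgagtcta
Hoxa10 near start: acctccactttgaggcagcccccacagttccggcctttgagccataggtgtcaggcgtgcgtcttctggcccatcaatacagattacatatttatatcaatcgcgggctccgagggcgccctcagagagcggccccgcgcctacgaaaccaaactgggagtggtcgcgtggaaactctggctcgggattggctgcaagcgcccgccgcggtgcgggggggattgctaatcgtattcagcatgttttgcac
Windows of this length were found for 6 of the 8 members, 7 windows in all. None of the 7 held TGACAG, a site of Meis and Pknox proteins, TGATTNAT, a joint site of Pbx and Hox proteins, or TTTATNG, a site of Cdx and posterior Hox proteins, on either strand. Over all 32851 windows in the table, 15.9%, 2.82% and 9.81% held these letters. The near window of Hoxa10 was 59.2% G and C and the far one 51.6%, against 49.6% for Hoxa9 and a median of 52.4% over all windows. The counts cover the whole gene, so which start of Hoxa10 was used was not tested.

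Within the Hoxa cluster (mm10 chromosome 6, all on the minus strand), the 4 members lie in order from Hoxa5 (52201754 to 52204587) through Hoxa7 (52215624 to 52218573) and Hoxa9 (52223097 to 52227370) to Hoxa10 (52231197 to 52240854). Their exons shared 0 bases with exons of other genes in GENCODE M21. This matters because the library kit named in the labels does not mark strand, and the cluster holds antisense transcripts.

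Hoxa10, a posterior Hox factor that expands stem and progenitor cells when overexpressed in mice, had 702, 438 and 358 counts in wild-type replicates 1 to 3. In knockout replicates 4 to 6 it had 1667, 1778 and 2338 counts, which corresponds to 43.5, 46.4 and 73.5 CPM against 24.1, 16.8 and 11.3 CPM. Every knockout library was above every wild-type library, and knockout replicate 6 was the highest. This gave a log2 fold change of 1.65 (SE 0.40) and adjusted p = 0.169 (edgeR quasi-likelihood F-test). The adjusted p was 0.00964 with DESeq2 and 0.0165 with the likelihood ratio test. Across the alternatives it ran from 0.00964 to 0.435, and the log2 fold change from 1.37 (without knockout replicate 6) to 1.95 (without wild-type replicate 1).

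Hoxa9, the partner of Meis1 in progenitor self-renewal, had 4118, 2239 and 3311 counts in wild type and 5740, 3989 and 1933 counts in knockout. The groups overlapped over most of their range, and knockout replicates 4 and 6 were the highest and the lowest of all 6 libraries. Means were 110.5 ± 28.2 and 104.8 ± 44.5 CPM, with a log2 fold change of -0.08 (SE 0.35) and adjusted p = 0.963 (edgeR quasi-likelihood F-test). Without knockout replicate 6 the log2 fold change was 0.20, and without wild-type replicate 1 it was 0.14, so its sign rests on single libraries.

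Hoxa7, a factor of the middle of the cluster, was the steadiest of the 4. It had 1162, 838 and 1098 counts in wild type and 1943, 1298 and 1167 counts in knockout, which gave 35.5 ± 3.93 and 40.4 ± 8.99 CPM. Scaled for depth, the libraries had 39.84, 32.15 and 34.61 CPM in wild type and 50.66, 33.87 and 36.68 CPM in knockout. In CPM the groups thus overlapped, with knockout replicate 4 alone above all wild-type libraries. The log2 fold change was 0.19 (SE 0.31; adjusted p = 0.877, edgeR quasi-likelihood F-test) and -0.01 without knockout replicate 4.

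Hoxa5, which in human blood progenitors affects the balance of erythroid and myeloid output, had 130, 147 and 167 counts in wild type. In the knockout it had 444, 623 and 75 counts, or 11.6, 16.3 and 2.36 CPM against 4.46, 5.64 and 5.27 CPM. Knockout replicates 4 and 5 were above, and replicate 6 below, all wild-type libraries. The log2 fold change was 0.97 (SE 0.80; adjusted p = 0.688, edgeR quasi-likelihood F-test). It was 1.44 without knockout replicate 6 and 0.44 without knockout replicate 5.

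**Figure D1:**
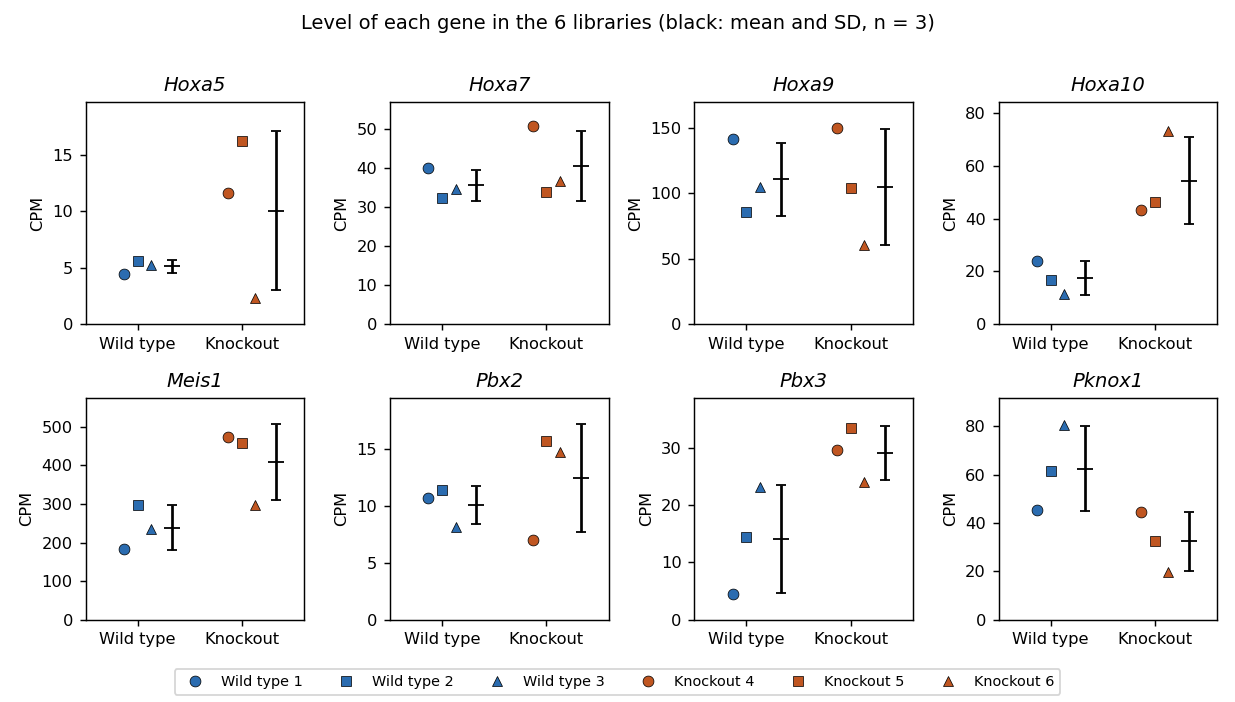
Level of the 8 genes in CPM (vertical axes from 0) in each of 3 wild-type (blue) and 3 knockout (orange) libraries, with the mean and SD of each group in black; marker shapes only tell libraries apart and pair none. Hoxa10 and Pbx3 lay higher and Pknox1 lower in all knockout libraries, while Hoxa5 in knockout replicate 6 lay below every wild-type library.

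The ratio of Hoxa10 to Hoxa9 compares the neighbours within a library and needs no scaling between libraries. It was chosen with earlier results of these data known. Hoxa10 itself did not overlap between the groups, so the ratio partly restates its values. Per exon length, Hoxa10 stood at 0.175, 0.201 and 0.111 times Hoxa9 in wild type and at 0.298, 0.458 and 1.24 times in knockout. The groups did not overlap, and in knockout replicate 6 alone the Hoxa10 level exceeded that of Hoxa9. On the log2 scale the count ratio averaged -2.70 ± 0.45 in wild type and -0.89 ± 1.06 in knockout, a difference of 1.81. The exact two-sided permutation test gave p = 0.1, the smallest value that 3 against 3 libraries allow, so this design cannot place the ratio below 0.05. The difference was 1.23 without knockout replicate 6.

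The other cluster transcripts came from a list of 14, of which 7 were tested and 7 are not analysed here. None of the 7 passed the test, and 0 had an unadjusted p below 0.05 (edgeR quasi-likelihood). Their median log2 fold change was 0.11, beside -0.01 over all genes tested. Hoxa2, Hoxa3, Hoxa4 and Hoxa6 were patchy: Hoxa2 had 134, 28 and 0 counts in wild type and 0, 63 and 143 counts in knockout, and Hoxa6 had 21, 10 and 72 counts against 82, 68 and 0 counts. Hoxa3 had 265, 107 and 96 counts against 2, 236 and 225 counts. The standard errors of these 4 genes ran from 1.37 (Hoxa3) to 2.21 (Hoxa2) on the log2 scale. Hoxa4 stayed at or below 1 CPM in every library. Among the noncoding transcripts Mira, which lies between Hoxa6 and Hoxa7, had 3.61 to 5.93 CPM in wild type and 4.51 to 5.09 CPM in knockout. Hotairm1, towards the 3′ end of the cluster, had 30, 5 and 7 counts in wild type and 42, 30 and 63 counts in knockout (log2 fold change 1.41, SE 1.52). Hoxaas3, antisense in the Hoxa5 region, had 24, 17 and 47 counts against 71, 54 and 29 counts.

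Expressed per kilobase of exon, Hoxa7 and Hoxa9 had the highest means of the listed Hoxa genes in both groups. In knockout replicate 6, however, Hoxa10 was above both (23.39 against 18.82 for Hoxa9 and 18.8 CPM per kb for Hoxa7). The genes from Hoxa2 to Hoxa6 lay below 10 CPM per kb in every library, Hoxa7 between 16.5 and 26.0, and Hoxa9 between 18.8 and 46.4 CPM per kb. Hoxa10 differed, at 3.59 to 7.66 CPM per kb in wild type and 13.8 to 23.4 CPM per kb in knockout. Its share of the summed level of the 8 listed Hoxa genes was 9.41%, 9.75% and 5.87% in wild type and 14.5%, 18.6% and 34.6% in knockout. The share of Hoxa9 was 48.5% to 53.7% in wild type and 48.5%, 40.5% and 27.8% in knockout replicates 4 to 6, and that of Hoxa7 25.1% to 30.0% against 21.8% to 27.8%. The summed level itself was 54.9 to 81.4 CPM per kb in wild type and 67.6 to 95.7 CPM per kb in knockout, which overlap.

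**Figure D2:**
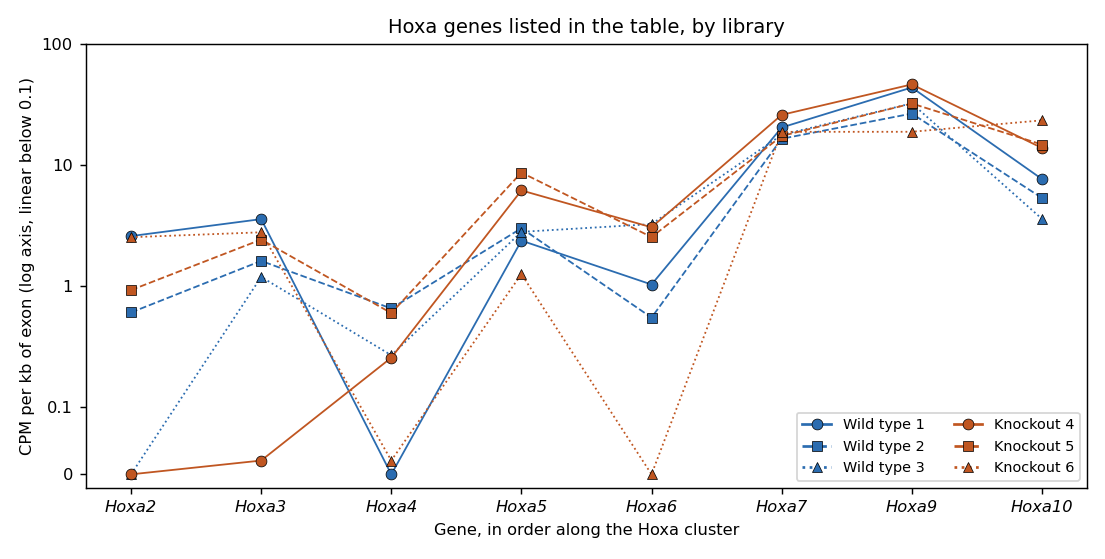
Level per kilobase of exon (CPM per kb, log axis that is linear below 0.1) of the Hoxa genes listed in the table, in their order along the cluster, with 1 line per library (wild type blue, knockout orange). The lines run close together at Hoxa7 and part at Hoxa10, where the knockout libraries sit between 13.8 and 23.4 and the wild-type libraries between 3.59 and 7.66.

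Of the TALE members, Meis1 (mm10 chromosome 11, 18880428 to 19018969, minus strand), the Hox cofactor that limits oxidative stress in stem cells, had the highest level per exon length of all 8 genes in every library. It had 5317, 7780 and 7461 counts in wild type and 18129, 17523 and 9437 counts in knockout, or 182, 298 and 235 CPM against 473, 457 and 297 CPM. Knockout replicates 4 and 5 were above all wild-type libraries, and replicate 6 lay just under wild-type replicate 2. On the log2 scale the fold change was 0.78 (SE 0.28; adjusted p = 0.313, edgeR quasi-likelihood F-test), and it stayed between 0.61 and 0.97 when any 1 library was left out.

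Pknox1 (also called Prep1; mm10 chromosome 17, 31564773 to 31607693, plus strand) competes with Meis1 for binding to Pbx proteins and restrains Meis1-driven transformation in mouse cells. It had 1326, 1605 and 2550 counts in wild type and 1708, 1252 and 632 counts in knockout, or 45.5, 61.6 and 80.4 CPM against 44.5, 32.7 and 19.9 CPM. Every knockout library was below every wild-type library, with wild-type replicate 1 and knockout replicate 4 almost level. Its log2 fold change was -0.95 (SE 0.38; adjusted p = 0.379, edgeR quasi-likelihood F-test), and it ran from -1.25 to -0.69 when any 1 library was left out. Of its exon bases, 2.6% overlap the antisense gene AC166172.4, and reads there cannot be assigned to a strand. For Meis1, 1.71% overlap the gene model Gm37818 on its own strand.

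The ratio of Meis1 to Pknox1 was looked at after their values were seen and is given without a test. Per exon length Meis1 stood at 5.20, 6.28 and 3.79 times Pknox1 in wild type and at 13.8, 18.1 and 19.4 times in knockout. Knockout replicate 6, which stood apart on the first principal component, had the highest of these ratios. Of the summed level of the listed Meis and Pknox genes, Meis1 made up 78.7% to 83.9% in wild type and 90.1% to 94.0% in knockout, and Pknox1 13.2% to 20.7% against 4.82% to 6.55%.

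Pbx3 (mm10 chromosome 2, 34171457 to 34372045, minus strand), the Pbx protein that supports Hoxa9-driven leukemia, had 131, 378 and 736 counts in wild type and 1136, 1278 and 764 counts in knockout. These were 4.49, 14.5 and 23.2 CPM against 29.6, 33.4 and 24.0 CPM. The wild-type libraries spread widely, and the lowest knockout library, replicate 6, was barely above the highest of them. The log2 fold change was 1.04 (SE 0.58; adjusted p = 0.527, edgeR quasi-likelihood F-test), and it was 0.62 without wild-type replicate 1 and 1.59 without wild-type replicate 3.

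Pbx2 (mm10 chromosome 17, 34592471 to 34597341, plus strand), a broadly expressed Pbx protein, had 311, 297 and 259 counts in wild type and 269, 600 and 468 counts in knockout. The groups overlapped, since knockout replicate 4 was the lowest library at 7.01 CPM and replicates 5 and 6 were the highest at 15.7 and 14.7 CPM. The log2 fold change was 0.31 (SE 0.53; adjusted p = 0.885, edgeR quasi-likelihood F-test), 0.59 without knockout replicate 4 and 0.08 without knockout replicate 5.

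Of 13 other TALE genes on the list, 5 were in the table and 4 were tested. None passed the test and 0 had an unadjusted p below 0.05 (edgeR quasi-likelihood), with a median log2 fold change of 0.48 beside -0.01 over all genes tested. Pbx4, a Pbx paralog, had 21.7, 16.3 and 27.5 CPM in wild type and 18.5, 12.1 and 12.0 CPM in knockout (log2 fold change -0.62, SE 0.43). Tgif1, a TALE repressor of TGF-beta signalling, had 78.2 to 97.1 CPM in wild type and 71.5 to 153.5 CPM in knockout, and Tgif2 11.7 to 20.4 against 17.2 to 29.1 CPM. Meis3 had 0, 157 and 29 counts in wild type and 352, 48 and 99 counts in knockout. Meis2 was not tested, at 0, 39 and 0 counts against 2, 93 and 0 counts.

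For Pbx2, Pbx3 and Pbx4 a sum and its make-up were taken from levels per exon length. The sum was 21.5, 21.3 and 31.5 CPM per kb in wild type and 26.6, 26.2 and 22.6 CPM per kb in knockout, so the groups overlapped. Pbx3 made up 7.32%, 23.9% and 25.8% of it in wild type and 39.0%, 44.6% and 37.3% in knockout. Pbx4 made up 75.0%, 57.0% and 64.9% in wild type and 51.6%, 34.1% and 39.5% in knockout. Neither gene's shares overlapped between the groups, while those of Pbx2 did. These shares were not tested, since 3 against 3 libraries cannot give a permutation p under 0.1.

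**Figure D3:**
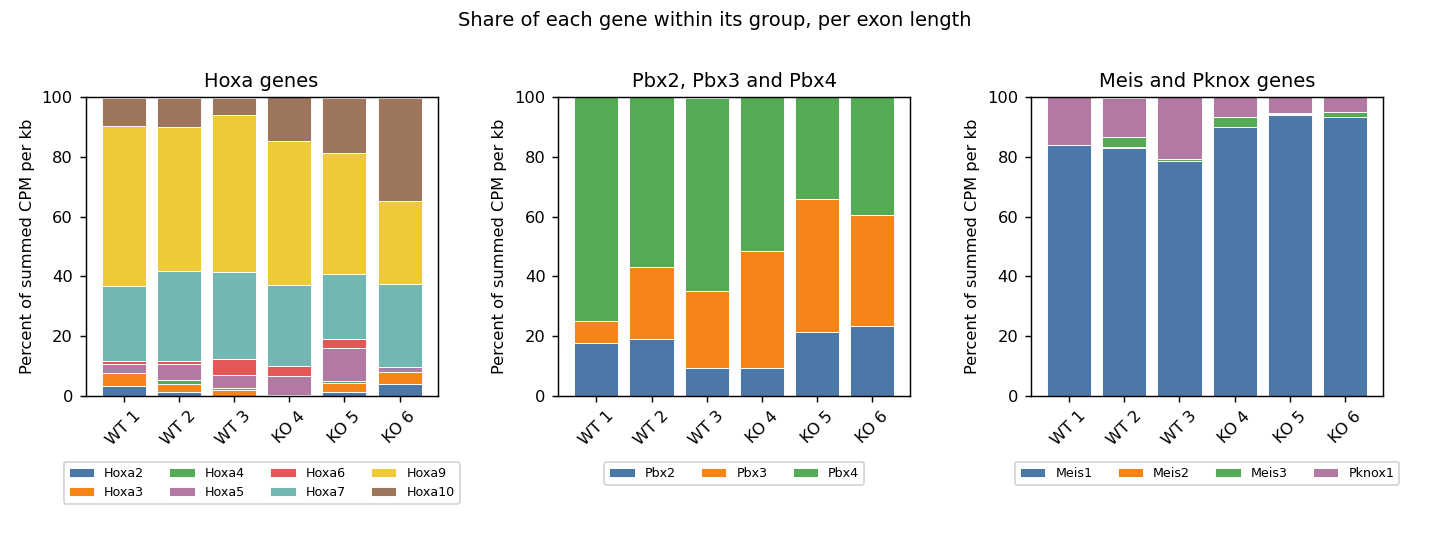
Stacked bars of the share (percent of the summed CPM per kb) of each gene among the listed Hoxa genes, among Pbx2, Pbx3 and Pbx4, and among the listed Meis and Pknox genes, 1 bar per library. The Hoxa10 share reached 14.5% or more in the knockout libraries and at most 9.75% in wild type, Pbx3 at least 37.3% against at most 25.8%, and Pknox1 at most 6.55% against at least 13.2%.

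The order of the mean levels per exon length placed Meis1 on top, then Hoxa9, then Hoxa7 in both groups. In wild type Meis1 (69.3 ± 16.9 CPM per kb) stood clear of Hoxa9 (34.2 ± 8.72), Hoxa9 clear of Hoxa7 (18.2 ± 2.01), and Pknox1 (14.0 ± 3.92) clear of Hoxa10 (5.53 ± 2.04). The neighbours Hoxa7 and Pknox1 overlapped, as did each step among Hoxa10, Pbx3 (4.93 ± 3.281), Pbx2 (3.60 ± 0.60) and Hoxa5 (2.73 ± 0.32). In knockout Meis1 (118.8 ± 28.3 CPM per kb) again stood clear of Hoxa9 (32.5 ± 13.8). The ranges of Hoxa9, Hoxa7 (20.7 ± 4.61) and Hoxa10 (17.3 ± 5.27) overlapped step by step. Within knockout replicates 4 and 5 Hoxa9 was still above Hoxa7 (46.35 and 32.24 against 25.97 and 17.36 CPM per kb). In replicate 6 these 2 genes were almost level (18.82 and 18.8). Hoxa10 stood clear of Pbx3 (10.2 ± 1.65), and the steps on to Pknox1 (7.25 ± 2.77), Hoxa5 (5.36 ± 3.77) and Pbx2 (4.45 ± 1.69) overlapped. By mean level Hoxa10 thus stood at rank 5 in wild type and rank 4 in knockout, and Pknox1 at ranks 4 and 6.

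**Figure D4:**
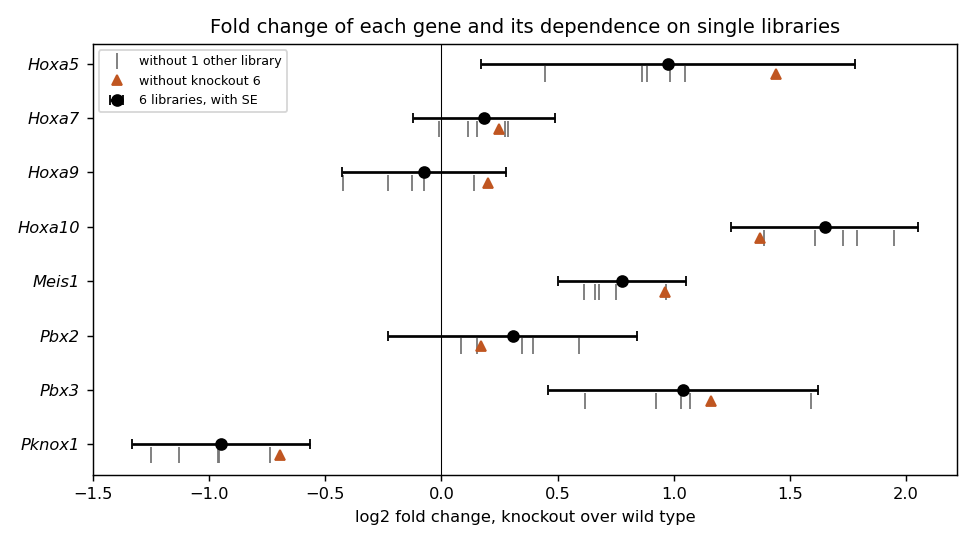
Log2 fold change of knockout over wild type for each of the 8 genes, from all 6 libraries (black point with its SE) and with 1 library left out (grey ticks; orange triangle without knockout replicate 6). Hoxa10 stays between 1.37 and 1.95 and Pknox1 between -1.25 and -0.69, while Hoxa9 falls on both sides of 0.

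Across the 8 members the median log2 fold change was 0.54, beside -0.01 over all genes tested, and 6 were fitted higher where 49.6% of all genes were. Leaving out knockout replicate 6 raised the count of members whose groups do not overlap from 3 to 5, through Hoxa5 and Meis1, while the share over all genes tested rose to 32.8%. Hoxa7 and Hoxa9 were the pair of members with the most similar pattern over the 6 libraries, with a root mean square difference of 0.35 in centred log2 CPM. Among the 10379 other genes with a mean log2 CPM of at least 1, the nearest to Hoxa10 were Pcbd1 (0.09) and Fah (0.11), and the nearest to Meis1 were Letm2 (0.11) and Cerkl (0.12). Hes1 (0.17), a target of Notch signalling, and Arhgap12 (0.20) were nearest to Hoxa5, Abhd5 (0.07) and Prpsap1 (0.08) to Hoxa7, and Ccdc94 (0.10) and Nmt2 (0.11) to Hoxa9. Thnsl1 (0.09) and Pgrmc1 (0.10) were nearest to Pbx2, Usp54 (0.13) and Kcnk5 (0.21) to Pbx3, and Pidd1 (0.13) and Hcfc1 (0.14) to Pknox1. These distances describe 6 points each and carry no test.

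Regulators of the Hoxa cluster were described by lists. Of 25 tested activators, such as the MLL complex and its cofactors, 0 passed the test and 18 were fitted lower (median log2 fold change -0.31). An unadjusted p below 0.05 was found for 3, beside 11.9% of all genes tested (edgeR quasi-likelihood). Over all genes tested, 49.6% were fitted higher. Xpo1, a nuclear export receptor that tethers NPM1 and NUP98 fusion proteins at Hox genes in human leukemia, averaged 126.9 ± 53.9 and 51.3 ± 26.3 CPM. Mllt3 (AF9), a reader of acylated histones that sustains human stem cells, averaged 22.7 ± 7.73 and 77.7 ± 73.5 CPM. Of 18 polycomb genes 0 passed, with 11 fitted lower, 2 at an unadjusted p below 0.05 (beside 11.9% of all genes tested) and a median of -0.04. Of these, Suz12 averaged 67.4 ± 11.8 and 28.0 ± 9.58 CPM and Ezh2, the methyltransferase of the same complex, 136.3 ± 4.09 and 64.7 ± 28.7 CPM. Neither gene's groups overlapped, where those of 21.4% of all genes tested did not. The level of Pcgf2 is given above with the libraries.

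Among 15 DNA-binding collaborators and cofactors of Hoxa9 and Meis1, 0 passed, 0 had an unadjusted p below 0.05 (edgeR quasi-likelihood), and the median log2 fold change was -0.15. Cebpa, a myeloid factor that Hoxa9 needs in leukemia, averaged 14.7 ± 7.54 and 2.81 ± 2.29 CPM, and Tle3, a corepressor, 22.8 ± 13.1 and 10.2 ± 4.24 CPM. Of 24 tested genes reported as targets of Hoxa9, Hoxa10 or Meis1, 0 passed and 16 were fitted lower (median -0.24). The unadjusted p was below 0.05 for 6 of them, beside 11.9% of all genes tested (edgeR quasi-likelihood). Cybb, the phagocyte oxidase subunit that HOXA10 represses in human myeloid cells, had means of 46.9 ± 19.2 and 11.5 ± 1.08 CPM (log2 fold change -2.03, SE 0.41; adjusted p = 0.13, edgeR quasi-likelihood F-test). Cdkn1a, the cell cycle inhibitor p21 that HOXA10 activates in human myelomonocytic cells, had means of 71.4 ± 26.0 and 22.1 ± 6.70 CPM (-1.69, SE 0.39; adjusted p = 0.15, same test). Both had lower values in every knockout library than in any wild-type library. The groups of 21.4% of all genes tested did not overlap, in either direction. Cybb is also carried by myeloid cells, the sums of the lineage-primed markers were lower in the knockout libraries (541 to 1690 against 6490 to 15100 CPM), and their part in these values was not tested. The targets Flt3, Cd34 and Il7r are themselves on the progenitor marker list, and Itgb3 on that of megakaryocytes. Of 28 genes of the other Hox clusters, 6 were tested, all from Hoxb. None passed and 6 were fitted higher, where 49.6% of all genes tested were. For 2 the unadjusted p was below 0.05, beside 11.9% of all genes tested (edgeR quasi-likelihood). Hoxb5 is itself on the LT-HSC marker list, all 20 of which were fitted higher. Hoxb6 had 93, 308 and 0 counts in knockout replicates 4 to 6. Hoxb2 averaged 12.5 ± 5.68 and 35.4 ± 8.46 CPM, and Hoxb7 had 0 counts in wild type and 53, 94 and 94 counts in knockout.

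Markers of further cell types were summed in the same way. B cell markers summed to 112 to 283 CPM in wild type and 72.7 to 150 CPM in knockout (0 of 6 passed). The fitted direction was lower for 5 of the 6, with a median log2 fold change of -1.83. At an unadjusted p below 0.05 there were 3, beside 11.9% of all genes tested (edgeR quasi-likelihood). Most of the knockout sum was Cd79b, at 59.4, 70.4 and 138.4 CPM. Cd79a averaged 60.0 and 3.38 CPM, Blnk 28.3 and 5.63 CPM, and Ms4a1 9.66 and 0.03 CPM. Ebf1, not tested, had 162, 23 and 1 counts in wild type and 0 counts in knockout. Markers of T and NK cells summed to 9.58 to 26.9 and 0.503 to 15.4 CPM (0 of 3 passed). Cd4, Cd8a and Tcf7 had 0 counts in knockout. In wild type Cd4 had 156, 204 and 0 counts, Cd8a 32, 0 and 0, and Tcf7 444, 285 and 162. Cd4 and Cd8a were not tested. Monocyte and macrophage markers summed to 768 to 1040 and 793 to 907 CPM. Of these, 5 of 7 were fitted lower with a median log2 fold change of -2.63, and Ccr2 and F13a1 fell (2 of 7 passed). Most of the sum was Lyz2, with means of 505 and 780 CPM (not past the test), while Csf1r averaged 50.8 and 0.24 CPM and Ly6c2 228 and 36.8 CPM. Erythroid sums were 707 to 2360 and 2320 to 2720 CPM (0 of 8 passed). Car2 made up most of them, at 511.6 to 1708 CPM in wild type and 2097 to 2388 CPM in knockout, and each of the other 7 overlapped between the groups, with Car1, Tfrc and Gata1 fitted lower. Neutrophil sums were 84.5 to 683 and 179 to 621 CPM (0 of 7), and megakaryocyte sums 177 to 1220 and 285 to 1300 CPM (0 of 7). Gp6, not tested, had 0, 0 and 29 counts in wild type and 0 counts in knockout. Sums for marrow stroma, cells that also express Hox and TALE genes, were 25.5 to 144 and 10.5 to 72.6 CPM (0 of 3 passed). Pdgfrb averaged 62.8 and 13.6 CPM, while Col1a2 averaged 2.17 and 10.1 CPM, Cxcl12 1.25 and 14.7 CPM, and Col1a1 had 0 counts in wild type and 173, 15 and 0 counts in knockout. The fitted direction was higher for 2 of the 3 tested (median 2.22 on the log2 scale). For endothelium the sums were 192 to 318 and 251 to 333 CPM (0 of 5). Its markers moved both ways, with 3 fitted higher and 2 lower (median log2 fold change 0.816). At an unadjusted p below 0.05 there were 2, beside 11.9% of all genes tested (edgeR quasi-likelihood). Eng averaged 112.6 and 198.1 CPM, and Pecam1 111.0 and 53.5 CPM. The part of these cells in the Hoxa and TALE levels was not tested.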

How the data were processed

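A SMART-Seq v4 kit made the cDNA and Nextera XT the libraries, per the labels' protocols. Reads were handled with Trimmomatic 0.40, STAR 2.5, FastQC, MultiQC 0.11.5 and edgeR 3.28.1 on build mm10, per the submitters' processing notes; the sources used here give no strand setting or gene filter. In their table the authors deposited raw counts, log2 FPKM, exon length, and their own comparison as a signed fold score, log2 fold changes and p-values. Counts were used throughout, and the log2 FPKM values and the signed fold score were not used.

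Genes passing filterByExpr (minimum 10 counts) were fitted in R 4.3.3 with edgeR 4.0.16 (TMM, robust quasi-likelihood, two-sided, Benjamini-Hochberg, threshold 0.05). The standard error is the log2 fold change divided by the root of F. CPM use TMM-scaled totals, and CPM per kb divides by the deposited exon length. Ratios of counts added 0.5 to each count and were compared by an exact permutation test. Likeness is the root mean square difference of centred log2 CPM (prior count 2). Alternatives were DESeq2 1.42.0, limma-voom 3.58.1 with and without quality weights, the likelihood ratio test, RLE scaling, other filters, non-robust estimation and leaving out each library, tested first on simulated data. Of the symbols, 96.2% matched GENCODE M21, all 8 members among them. All pairs of libraries differed by more than sampling noise (chi-square at least 142 per degree of freedom). The members, the lists and the ratio of Hoxa10 to Hoxa9 were chosen with earlier results of these data known. The text names all members, all listed cluster and TALE transcripts analysed, from each other list the genes that passed (where none did, the 2 of smallest p), and the 2 genes most like each member. The promoter motifs and the ratio of Meis1 to Pknox1 were chosen after the data were seen. One gene is not reported here. Counts of PCR reads cover counting error only.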

Additional observations from a re-analysis of the deposited data

How the results depend on the processing

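The count of genes called over the whole table was 18 and moved to 28 with no count filter, 530 with DESeq2, 432 with the likelihood ratio test, 0 with limma-voom (1775 at an unadjusted p below 0.05) and 4 with sample quality weights; without 1 library it ran from 0 to 49, and the cause was not tested. Members called numbered 1 with DESeq2 and 1 with the likelihood ratio test (Hoxa10 both times, log2 fold change 1.66 and 1.65, past the threshold), and 0 to 0 without any 1 library. Hoxa9 turned positive with quality weights (0.0397), and without 1 library it ran from -0.42 to 0.20; Hoxa7 ran from -0.0101 to 0.287. Without 1 library, Hoxa5 ran from 0.44 to 1.44, Hoxa10 from 1.37 to 1.95, Meis1 from 0.61 to 0.97 and Pbx2 from 0.08 to 0.59. In the same fits Pbx3 ran from 0.62 to 1.59 and Pknox1 from -1.25 to -0.69. Apart from Hoxa7 and Hoxa9, no member changed sign when a library was left out, and no member changed call. Members whose groups do not overlap numbered 3 to 5 without 1 library, where 28.0% to 33.3% of all genes tested did not overlap, an alternative chosen after seeing the data. The difference in the log2 ratio of Hoxa10 to Hoxa9 ran from 1.23 to 2.26. With 3 libraries a group, the standard errors of 0.28 to 0.80 limit what can be called. No paired analysis was possible because the groups share no replicate number.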

Other observations

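The comparison in the authors' deposited table, headed Cre+ against Cre-, gives other values for several members than the deposited counts do. For Hoxa10 the authors' deposited table has a log2 fold change of 0.13 (p = 0.797), where the counts gave 1.65. For Meis1 the authors' deposited table has 0.05 (p = 0.863), where the counts gave 0.78. For Pbx2 and Hoxa9 the sign differs: -0.31 and 0.32 in the authors' deposited table against 0.31 and -0.08 from the counts. For Hoxa5, Hoxa7, Pbx3 and Pknox1 the sign is shared, with 1.05, 0.16, 0.50 and -0.51 in the authors' deposited table. Over the authors' deposited table as a whole, 13934 genes have an adjusted p of 1 and 1 gene lies below 0.05. The sources used here do not give the libraries and terms behind that comparison, and the cause of the difference was not tested.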
